A study of Mus musculus with 12 samples.

Results

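The IL-6, JAK and STAT3 signalling core was followed in MLL-AF9 leukemia cells taken from 3 kinds of host mice. It comprises 10 genes of the 55401 in the expression table, named by hand for their place in the pathway, with earlier results of these data known: the receptors Il6ra, Il6st and Il4ra, the kinases Jak1, Jak2 and Tyk2, the transcription factor Stat3, and the target genes Socs3, Pim1 and Bcl3. All 10 were found in the table, and all 10 passed the filter of a mean of at least 1 TPM (a transcript level per length, scaled to the same total in every library).

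The study put the same MLL-AF9 line into hosts that differ in their immune cells and compared the expression profiles of the leukemia. MLL-AF9 is a fusion oncogene, delivered together with GFP into mouse bone marrow progenitors, and the resulting acute myeloid leukemia (AML) had been passed through many recipients. There were 4 libraries each from WT hosts (C57BL/6, with all lymphocytes), Rag2-/- hosts (which make no mature T or B cells but keep NK cells) and NSG hosts (which lack T, B and NK cells). By the methods the Rag2-/- hosts were C57BL/6 mice too, whereas NSG is a separate strain. In comparisons with NSG, strain and immune cells cannot be told apart. The genotype named is that of the host, since every library came from the same leukemia line, and the hosts were female mice. GFP+ cells were sorted from the bone marrow of moribund mice, and poly-A RNA was sequenced from both ends. The labels call the 4 libraries of a host biological replicates. A limma p-value sets a difference between hosts against the spread of libraries within hosts, estimated from all 12 libraries with help from other genes. It does not speak for other leukemia lines.

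As background, IL-6 binds its own receptor chain, encoded by Il6ra, and the complex engages gp130, encoded by Il6st, which many cytokines of the family share. The JAK kinases bound to gp130 then phosphorylate STAT3, which enters the nucleus and switches on targets that include its own feedback inhibitor, Socs3. IL-4 and IL-13 signal through IL-4Rα, encoded by Il4ra, and mainly through STAT6, and in myeloid cells these cytokine routes act on survival, maturation and the inflammatory response.

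Of the core, only Socs3 held the palindrome TTCNNNGAA, the letters that STAT factors bind, in its promoter window as RefSeq places it (GRCm38.p6, 250 bases before to 50 after the gene start). A window was found for all 10 genes, 11 windows in all, and 1 of the 11 had the motif, while 8.30% of 32851 windows of that length over all genes had it. The motif reads the same on both strands. Of 30 other STAT3 targets listed by hand, 22 had a window, 27 windows in all. Of the 27 windows 8 had the motif, and they belonged to 7 genes. The Socs3 window is shown as the only one in the core with a match, and those of Fas and Bcl6, chosen from the 7 after their values were seen, as examples among the other targets. Capitals mark the motif.
Socs3, chr11:117969317-117969616, minus strand: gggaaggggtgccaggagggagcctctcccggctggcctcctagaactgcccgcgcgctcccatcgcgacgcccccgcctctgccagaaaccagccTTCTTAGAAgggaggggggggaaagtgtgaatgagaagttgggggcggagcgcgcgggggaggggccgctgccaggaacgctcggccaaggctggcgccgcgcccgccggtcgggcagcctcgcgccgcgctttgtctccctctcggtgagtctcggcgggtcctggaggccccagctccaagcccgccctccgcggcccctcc
Fas, chr19:34290409-34290708, plus strand: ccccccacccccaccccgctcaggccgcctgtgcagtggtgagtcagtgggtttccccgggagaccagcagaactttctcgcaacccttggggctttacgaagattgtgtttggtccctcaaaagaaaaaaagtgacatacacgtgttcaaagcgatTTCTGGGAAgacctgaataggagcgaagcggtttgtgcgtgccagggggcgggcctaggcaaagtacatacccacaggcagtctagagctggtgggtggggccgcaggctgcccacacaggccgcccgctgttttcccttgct
Bcl6, chr16:23981234-23981533, minus strand, another start of the gene: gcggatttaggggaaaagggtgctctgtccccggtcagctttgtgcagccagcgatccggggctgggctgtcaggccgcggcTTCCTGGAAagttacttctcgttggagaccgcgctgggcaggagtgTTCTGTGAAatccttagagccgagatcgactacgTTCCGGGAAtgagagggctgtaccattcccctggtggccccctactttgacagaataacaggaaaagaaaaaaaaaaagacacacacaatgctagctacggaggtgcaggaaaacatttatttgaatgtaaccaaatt
In Socs3 the match TTCTTAGAA began 154 bases before the start. In Fas the match TTCTGGGAA began 93 bases before the start, and the Bcl6 window shown held 3 matches, the first 168 bases before its start. The other Bcl6 window, at the annotated start of the gene, held 1 match, TTCTCAGAA, which began 118 bases before that start. A match is a run of letters and does not show that STAT3 binds there.

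All 10 genes were transcribed in every library. By their mean TPM over the 12 libraries, Pim1 was the most abundant at 232 TPM, a level above that of 95.4% of the 15026 genes tested, followed by Stat3 at 133, Jak1 at 118, Il4ra at 91.7, Bcl3 at 80.0, Tyk2 at 67.7, Jak2 at 45.5, Il6ra at 37.5, Socs3 at 18.1 and Il6st at 17.5. Neighbours in this order kept it in all 12 libraries for Pim1 over Stat3, Jak1 over Il4ra, Tyk2 over Jak2, Jak2 over Il6ra and Il6ra over Socs3. Stat3 exceeded Jak1 in 11, Bcl3 exceeded Tyk2 in 10 and Il4ra exceeded Bcl3 in 9. Socs3 exceeded Il6st in only 5 of the 12, so the order of the lowest pair is not fixed. Il6st, the shared signalling chain, was thus the scarcest receptor of the core, with a median of 2.09 Il6ra transcripts to each Il6st transcript (range 1.78 to 2.61). Libraries were estimated at 16.0 to 42.7 in units of 1000000 reads, and the core value with the fewest reads, Socs3 in a single library, rested on about 154.

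The ligand was close to absent from the sorted cells. Il6 itself was listed at 0 in 6 libraries and reached at most 0.211 TPM, or about 13 reads in all libraries together, and it was not tested. Of the 4 gp130 cytokine genes that passed the filter, Osm, which encodes oncostatin M, was the most abundant at 29.0 to 66.1 TPM, followed by Il27 at 3.46 to 8.23, and Lif and Clcf1 stayed at or under 3.13 TPM.

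Compared over all genes, the hosts differed mainly between Rag2-/- and WT. Genes were called at a limma adjusted p below 0.05, taken over all genes tested, and a log2 fold change beyond 0.5. Between Rag2-/- and WT 1.47% of the genes tested were called, between Rag2-/- and NSG 0.213%, and between NSG and WT 0%. In the same order, 16.9%, 6.59% and 4.59% of the genes were parted without overlap in either direction. None of the 10 core genes was called in any of these comparisons, and none was called by limma's voom on estimated reads. At an unadjusted p below 0.05, limma gave 4 core genes between Rag2-/- and WT, 7 between Rag2-/- and NSG, and 1 between NSG and WT. The differences between hosts are given below gene by gene.

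The cells carried the transcripts of an MLL-AF9 leukemia in every library, and all 10 genes of a list of their identity, among them Fcgr3, Mpo, Hoxa9, Kit and Meis1, were tested. Mpo was lower in Rag2-/- than in WT (log2 fold change -2.13, limma adjusted p = 0.0189). Neutrophil markers moved with the Rag2-/- hosts: the summed level of 15 genes was 369 to 610.3 TPM in WT, 519 to 584 in NSG and 2472, 2418, 2511 and 954 in Rag2-/- libraries, and 12 of the 15 rose against WT and 8 against NSG. All cells had been sorted for GFP. In bulk RNA, more cells of a kind and more RNA per cell cannot be told apart, and the part of the neutrophil markers in the differences given below was not tested. Macrophage markers (10 genes, 7 tested) summed to 92.5 to 99.8 TPM in WT, 103 to 121 in Rag2-/- and 56.3 to 113 in NSG libraries, with 1 gene higher against each host. T and NK cell markers summed to at most 8.39 TPM, with Cd3e and Trac at 0 in every library, erythroid markers to at most 12.6 TPM, and B and plasma cell markers to 125 to 233 TPM, nearly all of it Ighm, with Ms4a1 at 0 in every library. Igkc, an antibody light chain gene, was lower in Rag2-/- than in WT (log2 fold change -2.75, limma adjusted p = 0.0348).

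**Figure D1:**
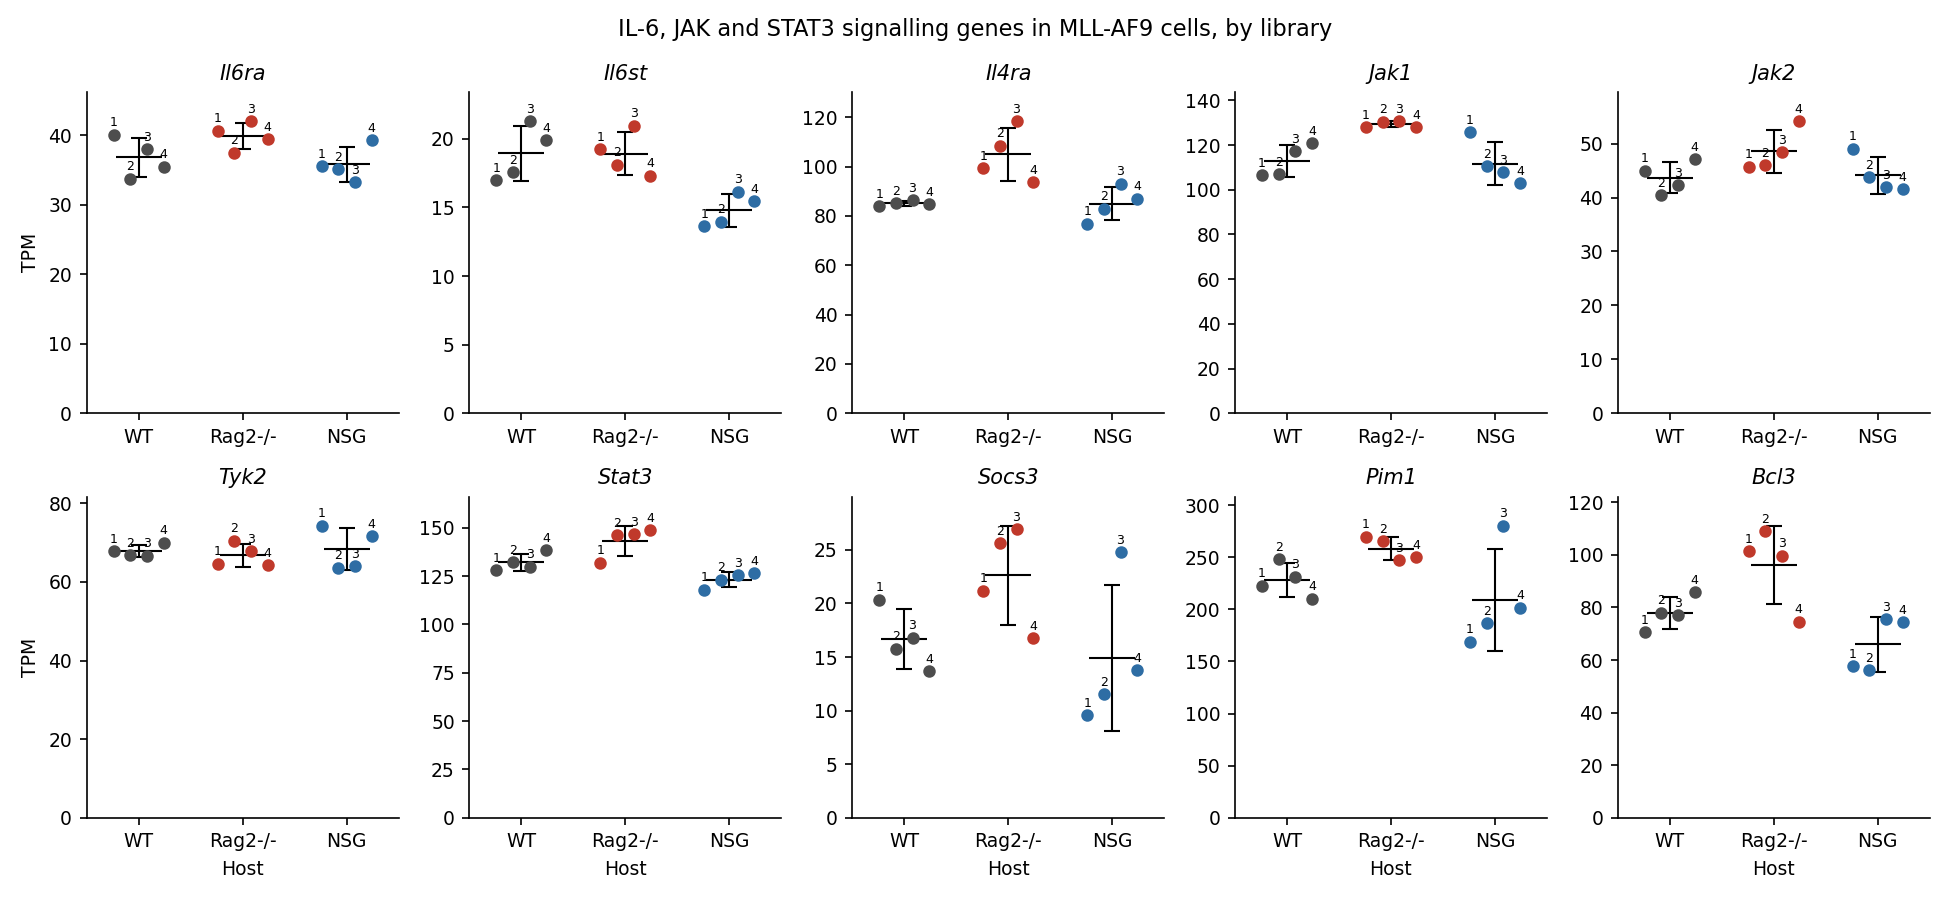
TPM of each of the 10 genes (vertical axis, from 0) in the 4 libraries of each host, numbered by replicate, with the mean and SD in black. Jak1 and Il4ra lay higher in all 4 Rag2-/- libraries than in all 4 WT libraries. Il6st and Stat3 lay lower in all 4 NSG libraries than in any other, and NSG replicate 3 stood above the other NSG libraries for Socs3 and Pim1.

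Il6ra (ENSMUSG00000027947, chr3:89864059-89913196 on mm10), the chain that gives a cell its sensitivity to IL-6, varied little. It was at 40.1, 33.7, 38.0 and 35.5 TPM in WT, at 40.6, 37.5, 42.0 and 39.4 in Rag2-/- and at 35.6, 35.1, 33.2 and 39.3 in NSG libraries. The 3 hosts overlapped. The log2 fold change of (TPM + 1) in Rag2-/- was 0.11 ± 0.071 (SE) against WT and 0.15 ± 0.071 against NSG, with limma adjusted p = 0.385 and 0.398.

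Il6st (ENSMUSG00000021756, chr13:112464070-112510086), encoding gp130, was, with Stat3, a member whose NSG libraries lay lowest. It was at 17.0, 17.6, 21.3 and 19.9 TPM in WT, at 19.2, 18.1, 20.97 and 17.3 in Rag2-/- and at 13.6, 14.0, 16.2 and 15.4 in NSG libraries. Every NSG library lay below every WT and every Rag2-/- library, whereas the WT and Rag2-/- libraries overlapped, with equal means of 18.9 TPM (SD 2.01 and 1.58, n = 4 each). The log2 fold change was -0.33 in NSG against WT (95% interval -0.54 to -0.13, limma adjusted p = 0.367) and 0.33 in Rag2-/- against NSG (0.13 to 0.54, adjusted p = 0.153). Between Rag2-/- and WT it was 0.00017, with an interval of -0.20 to 0.20, and its sign turned under other scalings of the libraries (-0.035 after quantile normalization).

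Il4ra (ENSMUSG00000030748, chr7:125552120-125579474) encodes the receptor chain that IL-4 and IL-13 share. It was at 83.9, 85.1, 86.4 and 84.9 TPM in WT, at 99.3, 109, 118 and 93.6 in Rag2-/- and at 76.9, 83.0, 93.1 and 87.0 in NSG libraries. All 4 Rag2-/- libraries lay above all 8 others, and the 4 WT libraries were nearly equal (CV 1.20%, against 10.4% in Rag2-/-). Its log2 fold change was 0.29 against WT (interval 0.13 to 0.46, 1.23-fold) and 0.30 against NSG (0.14 to 0.46), with limma adjusted p = 0.0545 and 0.121. Against WT it was the core gene with the smallest adjusted p.

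Jak1 (ENSMUSG00000028530, chr4:101152367-101265282) encodes a kinase used by gp130 and by IL-4Rα. Its level was 106, 107, 117 and 121 TPM in WT, 128, 130.4, 131 and 128 in Rag2-/- and 126, 110.4, 108 and 103 in NSG libraries. The Rag2-/- libraries were above all the others and close to one another (CV 1.09%), although NSG replicate 1 came close to them. The log2 fold change was 0.20 against WT and 0.21 against NSG (SE 0.064 each), with limma adjusted p = 0.112 and 0.175.

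Jak2 (ENSMUSG00000024789, chr19:29251828-29313080) and Tyk2 (ENSMUSG00000032175, chr9:21104068-21131243) encode the other kinases that attach to gp130. Jak2 was at 45.0, 40.5, 42.3 and 47.1 TPM in WT, at 45.7, 46.0, 48.4 and 54.2 in Rag2-/- and at 49.1, 43.8, 42.0 and 41.5 in NSG libraries, and the hosts overlapped. Its log2 fold change in Rag2-/- was 0.15 against WT and 0.14 against NSG, with intervals that reached -0.017 and -0.029.

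Tyk2 ranged from 66.6 to 69.99 TPM in WT, from 64.3 to 70.5 in Rag2-/- and from 63.6 to 74.3 in NSG libraries. It was the only core gene with a log2 fold change below 0 in both comparisons with Rag2-/-, at -0.023 against WT (interval -0.15 to 0.11) and -0.031 against NSG (-0.16 to 0.098).

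Stat3 (ENSMUSG00000004040, chr11:100885098-100939540) was at 128, 132, 129.9 and 138 TPM in WT, at 132, 146, 147 and 149 in Rag2-/- and at 118, 123, 125 and 126 in NSG libraries. The NSG libraries lay below all others. The Rag2-/- and WT libraries overlapped because Rag2-/- replicate 1, at 132 TPM, was far below the other 3. Its log2 fold change was 0.22 in Rag2-/- against NSG (SE 0.049), with the smallest limma p of the core (unadjusted 0.000906, adjusted 0.0968), 0.12 against WT (adjusted p = 0.211), and -0.10 in NSG against WT (adjusted p = 0.564). Stat3 and Il6st were the core genes whose NSG libraries all lay below all WT libraries, where 4.59% of the genes tested were parted between these hosts in either direction and 9.16% had an unadjusted p below 0.05.

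Socs3 (ENSMUSG00000053113, chr11:117966079-117970047), the feedback inhibitor of gp130 and JAK signalling, had the widest spread. It was at 20.4, 15.8, 16.8 and 13.7 TPM in WT, at 21.2, 25.6, 26.9 and 16.8 in Rag2-/- and at 9.58, 11.5, 24.8 and 13.8 in NSG libraries. Of the Rag2-/- libraries, 3 lay above every WT library and replicate 4 among them, and NSG replicate 3 lay among the Rag2-/- values. On the log2 scale the difference was 0.41 ± 0.24 (SE) from WT and 0.63 ± 0.24 from NSG, with limma adjusted p = 0.356 and 0.288. Without NSG replicate 3 the difference from NSG was 0.90, with adjusted p = 0.0450, and Socs3 would be called. With each library left out in turn this difference ran from 0.47 to 0.90, with limma adjusted p up to 0.574.

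Pim1 (ENSMUSG00000024014, chr17:29490753-29496112), encoding a survival kinase induced by STAT3 and STAT5, was at 223, 248, 231 and 210.3 TPM in WT, at 269.7, 265, 247 and 250.2 in Rag2-/- and at 169, 187, 280.1 and 201 in NSG libraries. NSG replicate 3, the library that was high for Socs3, had the highest Pim1 of all 12, while the other 3 NSG libraries were the lowest. In Rag2-/- the fold change was 0.18 (log2) against WT and 0.33 against NSG (SE 0.12 each), with limma adjusted p = 0.436 and 0.280. Without NSG replicate 3 the latter was 0.47, with adjusted p = 0.0229, just under the fold limit. Other omissions of 1 library brought it as low as 0.23, with limma adjusted p up to 0.462.

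Bcl3 (ENSMUSG00000053175, chr7:19808462-19822770), encoding a partner of NF-κB p50 and p52 that STAT3 can induce, was at 70.6, 78.1, 77.1 and 85.8 TPM in WT, at 101, 109, 99.6 and 74.6 in Rag2-/- and at 57.6, 56.2, 75.7 and 74.3 in NSG libraries. Rag2-/- replicates 1 to 3 exceeded every WT and NSG library, and replicate 4 fell into their range. Bcl3 differed by 0.54 (log2) from NSG (interval 0.26 to 0.81, limma adjusted p = 0.102), by 0.29 from WT (adjusted p = 0.221) and, for NSG against WT, -0.25 (adjusted p = 0.575). Without Rag2-/- replicate 4 the difference from NSG was 0.65, with adjusted p = 0.0249, and Bcl3 would be called. Over all omissions of 1 library this difference ran from 0.47 to 0.65, with limma adjusted p up to 0.301.

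**Figure D2:**
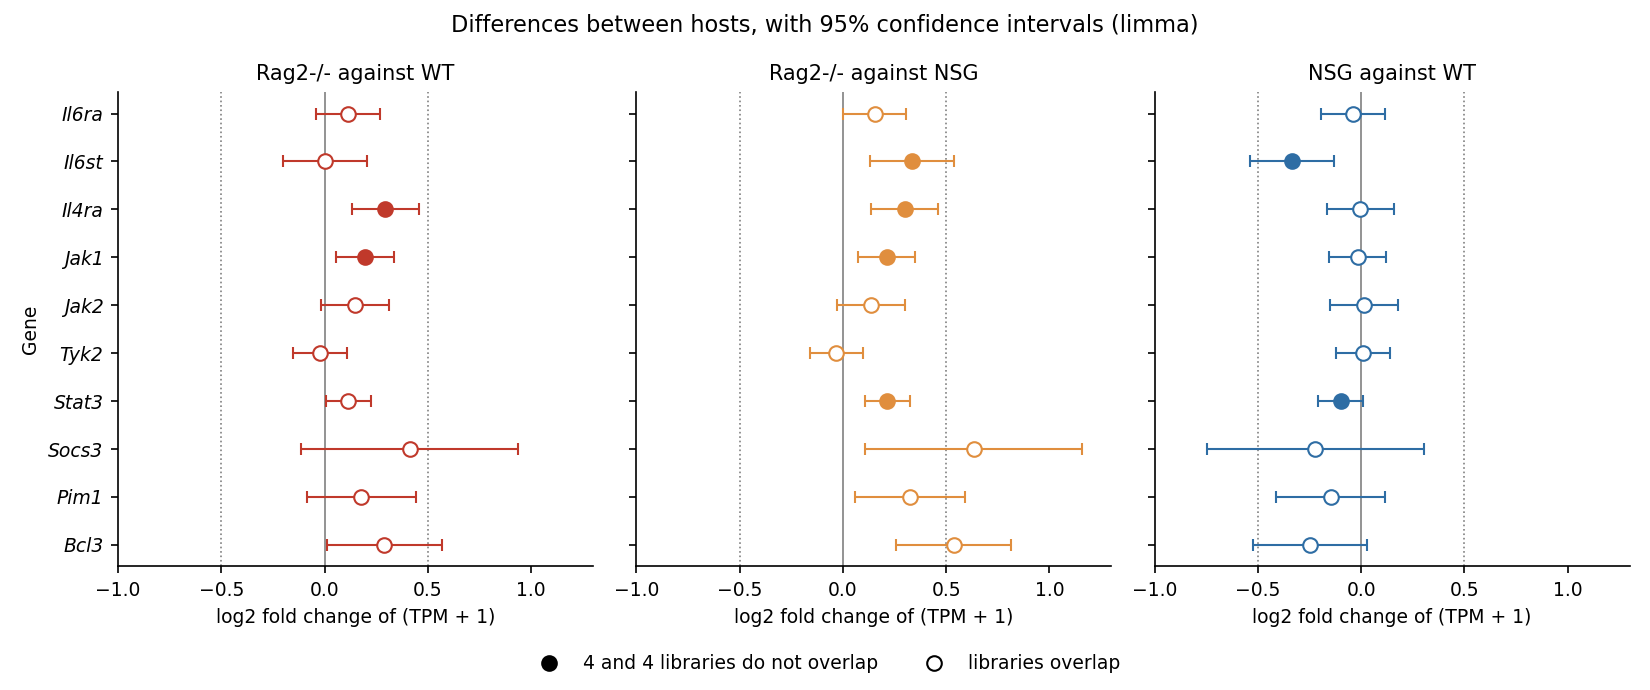
Log2 fold change of (TPM + 1) for each gene (horizontal axis) in the 3 comparisons, with 95% intervals from limma and dotted lines at the fold limit of 0.5. Filled points mark genes whose 4 and 4 libraries did not overlap, and 9 of 10 points lie above 0 in each comparison with Rag2-/- as the first host.

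Set side by side, the core leaned upward in Rag2-/- hosts by small amounts. Against WT, 9 of the 10 genes had a log2 fold change above 0, where 54.5% of all genes tested did, with a median of 0.16 (range -0.023 to 0.41) against 0.024 for all genes. Among the 9 is Il6st, at 0.00017, which fell below 0 under quantile normalization, median-ratio scaling and voom. Those with an unadjusted limma p below 0.05 were Il4ra, Jak1, Stat3 and Bcl3, all higher, 4 of 10 where 12.3% of all genes tested were higher at that limit. Il4ra and Jak1 were parted without overlap, 2 of 10 where 10.2% of all genes were higher in this way.

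Against NSG, again 9 of 10 were above 0, where 53.4% of all genes were, with a median of 0.26 (range -0.031 to 0.63) against 0.013 for all genes. The 7 genes with an unadjusted limma p below 0.05 were Il6st, Il4ra, Jak1, Stat3, Socs3, Pim1 and Bcl3, all higher in Rag2-/-, where 7.72% of all genes were. Il6st, Il4ra, Jak1 and Stat3 did not overlap, 4 of 10 where 4.34% of all genes were higher without overlap. The study had itself reported genes of the IL-6, JAK and STAT3 pathway as enriched in Rag2-/- against NSG, from these libraries. The core was named with earlier results known, so these shares are a description and no separate support. In NSG against WT the median was -0.070, with 8 of 10 genes below 0. These 3 comparisons share their libraries in pairs, so they are not independent of one another. Single genes were also tested by exact permutation of the 8 libraries of a comparison (two-sided), where the smallest p possible was 0.0286. It was reached in 8 of the 30 tests of a core gene in a comparison, which are the cases without overlap named above. In these cases the exact p restates the lack of overlap. Adjusted by Benjamini-Hochberg over the 30 tests, each of the 8 had an exact permutation p of 0.107.

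Rag2-/- replicate 4, the library of its host with the lowest neutrophil sum (954 TPM), was also the lowest Rag2-/- library for Il6st, Il4ra, Tyk2, Socs3 and Bcl3, and the highest for Stat3 and Jak2. Without replicate 4 the log2 fold change against WT was 0.35 for Il4ra (limma adjusted p = 0.0326), 0.54 for Socs3 (0.281) and 0.41 for Bcl3 (0.0815). Other omissions of 1 library brought these values as low as 0.23, 0.32 and 0.22. The limma adjusted p then rose as high as 0.153, 0.611 and 0.417. For Jak2 and Stat3, where replicate 4 was highest, its omission lowered the value against WT from 0.15 and 0.12 to 0.095 and 0.097. Leaving out the lowest library of a host raises its mean, and leaving out the highest lowers it.

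The other genes of the pathway were read from a list of 86 written by hand, of which 68 were tested. In Rag2-/- against WT, Osmr, Il13ra1, Stat4 and Lcn2 rose, 4 of the 68, and none fell, where 1.47% of all genes tested were called. Their 68 log2 fold changes had a median of 0.028, with 40 above 0 and 28 below. At an unadjusted limma p below 0.05, 16 of the 68 were higher and 6 lower, where 12.3% of all genes were higher and 8.66% lower. Without overlap, 11 were higher and 8 lower, where 10.2% and 6.72% of all genes were. In Rag2-/- against NSG, limma called 0 of the 68 (0.213% of all genes) and voom called 2, Osmr and Lcn2. At an unadjusted p below 0.05, 15 of the 68 were higher in Rag2-/- and none lower, where 7.72% of all genes were higher. The share of all genes that were lower at that limit was not counted. In NSG against WT, limma called 0 of the 68, with 4 at an unadjusted p below 0.05, where 9.16% of all genes were, and voom also called 0.

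**Figure D3:**
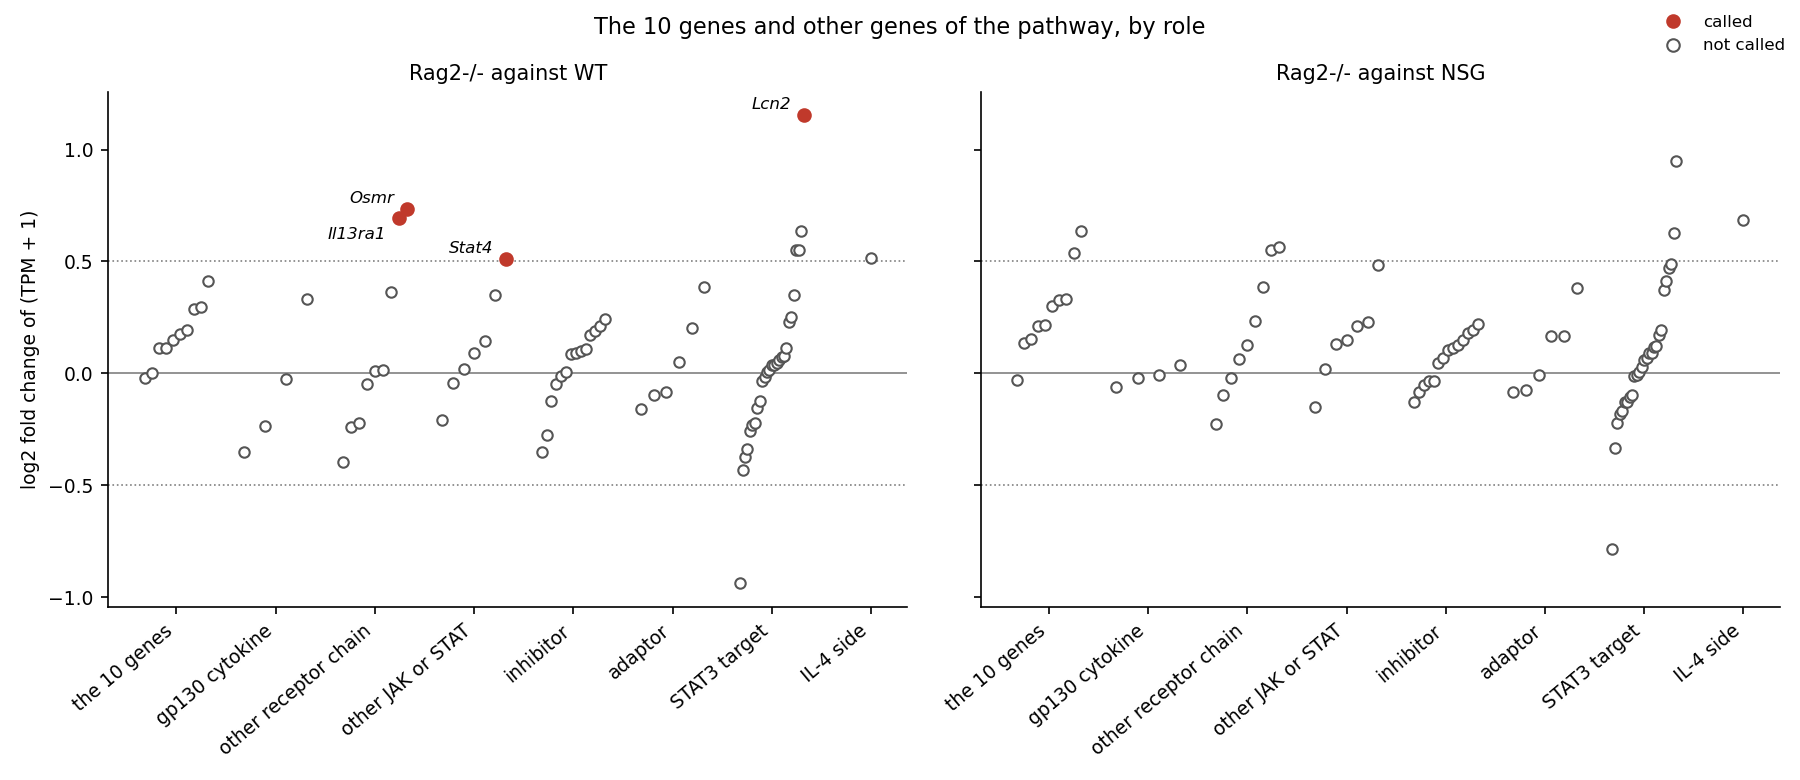
Log2 fold change of (TPM + 1), on the vertical axis, of the 10 genes and of the 68 other pathway genes tested, grouped by role, in Rag2-/- against WT and against NSG, with dotted lines at 0.5 and -0.5. Called genes are filled, and they are Osmr, Il13ra1, Stat4 and Lcn2 against WT and none against NSG.

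Among the other cytokine receptor chains on the list, which include partners of gp130 and IL-4Rα, 9 of 13 were tested. Of these, 2 rose in Rag2-/- against WT, where 1.47% of all genes tested were called. Osmr encodes the oncostatin M receptor chain, which pairs with gp130. It was at 5.87, 6.05, 6.79 and 6.47 TPM in WT, at 10.1, 11.4, 12.2 and 10.8 in Rag2-/- and at 6.73, 7.40, 8.95 and 6.27 in NSG libraries, so that all 4 Rag2-/- libraries lay above all 8 others. Its log2 fold change was 0.73 ± 0.11 (SE) against WT (limma adjusted p = 0.0099) and 0.55 against NSG (adjusted p = 0.0698). Its call against WT held with each of the 12 libraries left out in turn.

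Il13ra1 encodes the chain that joins IL-4Rα in the receptor for IL-13. It was at 40.4, 37.1, 45.0 and 49.9 TPM in WT, at 63.7, 64.6, 92.5 and 62.7 in Rag2-/- and at 40.3, 46.2, 60.4 and 43.3 in NSG libraries. Rag2-/- replicate 3 was far above the others, and the host did not overlap with WT or NSG. The log2 fold change was 0.69 ± 0.15 against WT (limma adjusted p = 0.0326) and 0.56 against NSG (adjusted p = 0.136). The call against WT was lost when any of Rag2-/- replicates 1, 2 and 3 or WT replicates 1, 2 and 3 was left out, with adjusted p up to 0.109.

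Il2rg, the other partner of IL-4Rα, had mean levels of 49.1, 49.5 and 50.9 TPM in WT, Rag2-/- and NSG. Il4ra exceeded Il13ra1 and Il2rg in all 12 libraries. The most abundant of these receptor chains were Csf3r, the receptor for G-CSF, at 232 TPM, Il10rb at 80.2 and Il21r at 71.0, and Csf3r was at a median of 6.08 times the level of Il6ra. None of these 3 was called. Lifr, the chain that pairs with gp130 for LIF, was at most 0.452 TPM in any library.

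Of the 7 other JAK and STAT genes, all tested, Stat4 alone rose in Rag2-/- against WT, where 1.47% of all genes tested were called. This STAT, best known in IL-12 signalling, was at 47.3, 47.3, 51.5 and 57.1 TPM in WT, at 79.3, 75.6, 67.4 and 68.5 in Rag2-/- and at 56.8, 53.5, 56.8 and 40.8 in NSG libraries. The Rag2-/- libraries lay above all others. The log2 fold change was 0.51 ± 0.11 against WT (limma adjusted p = 0.0287), just past the fold limit, and 0.49 against NSG (adjusted p = 0.0812). Its call was lost when any of the same libraries was left out, with values from 0.47 to 0.57 over all 12 omissions. Jak3, the kinase that pairs with Il2rg, was at 157 TPM on average and above Jak1 in all 12 libraries. Stat6, the main STAT of IL-4, had means of 118, 126 and 115 TPM in WT, Rag2-/- and NSG and was not called. Stat3 exceeded it in 11 of 12 libraries.

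Of the inhibitors, 14 of 16 were tested and none was called in any comparison. Of all genes tested, 1.47% were called in Rag2-/- against WT, 0.213% in Rag2-/- against NSG and 0% in NSG against WT. Ptpn6, which encodes the phosphatase SHP-1, was the most abundant at 408 TPM, followed by the adaptor inhibitor Sh2b3 at 98.4 and the phosphatases Ptpn1 at 94.0 and Ptpn2 at 74.5. Socs1, the relative of Socs3, was at 7.59, 5.75 and 5.77 TPM in WT, Rag2-/- and NSG (SD 1.03, 0.944 and 2.53), and its 3 hosts overlapped. Of the 6 adaptors none was called, but Gab2, a docking protein for SHP-2 and PI3K, passed the adjusted p against WT (log2 fold change 0.38 ± 0.074, limma adjusted p = 0.0227) without reaching the fold limit. It was at 36.4 to 44.0 TPM in WT, 52.6 to 56.5 in Rag2-/- and 37.1 to 45.6 in NSG libraries, again with Rag2-/- above all others.

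Among the other STAT3 targets, 27 of 30 were tested and 1 was called in Rag2-/- against WT, where 1.47% of all genes were. At an unadjusted limma p below 0.05, 5 of the 27 were higher and 3 lower, where 12.3% of all genes were higher and 8.66% lower. The gene called was Lcn2, encoding the iron carrier lipocalin 2, which is also a granule protein of neutrophils and stands in the neutrophil list as well. It was at 241, 136, 194 and 198 TPM in WT, at 402, 513, 555 and 273 in Rag2-/- and at 215, 221, 227 and 208 in NSG libraries. Every Rag2-/- library lay above the other hosts, replicate 4 least so. Lcn2 rose by 1.15 ± 0.20 (log2, SE) against WT (limma adjusted p = 0.0168) and its log2 fold change against NSG was 0.95 (adjusted p = 0.0778). The call was lost without WT replicate 2 or Rag2-/- replicates 2 or 3, with adjusted p up to 0.0628.

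None of the 7 targets with the promoter motif was called in Rag2-/- against WT, where 1.47% of all genes tested were called. They lay on both sides of 0 in that comparison. The log2 fold changes were -0.23 for Fgl2, -0.12 for Irf1, 0.076 for Tnfrsf1a, 0.11 for Icam1 and 0.55 for Il1r2, besides the 2 whose windows are printed above. Bcl6, encoding a transcriptional repressor, was at 6.27, 3.73, 5.69 and 4.32 TPM in WT and at 7.88, 8.69, 9.12 and 7.19 in Rag2-/- libraries, without overlap (log2 fold change 0.64, limma adjusted p = 0.0653). Fas, the death receptor, was at 14.3 to 18.4 TPM in WT and 17.7 to 29.1 in Rag2-/- libraries, with 1 Rag2-/- library below the highest of WT (0.55, adjusted p = 0.0506). The survival gene Mcl1 had means of 396, 398 and 382 TPM in the 3 hosts, and the immediate early gene Fos ran from 17.1 to 271 TPM with wide spread within each host.

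On the IL-4 side, only the macrophage receptor gene Mrc1 was tested of 6 genes, and it was not called. Retnla, a gene that IL-4 and IL-13 induce in macrophages, was listed at 0 in all 8 WT and NSG libraries and at 3.35, 3.67, 2.73 and 0.278 TPM in Rag2-/- libraries, about 44 reads in all. It fell below the filter. In the fit without a filter its log2 fold change against WT was 1.65, with limma adjusted p = 0.0512. Il13 and the decoy receptor gene Il13ra2 were listed at 0 in every library, and Il4 was at or below 1.01 TPM.

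**Figure D4:**
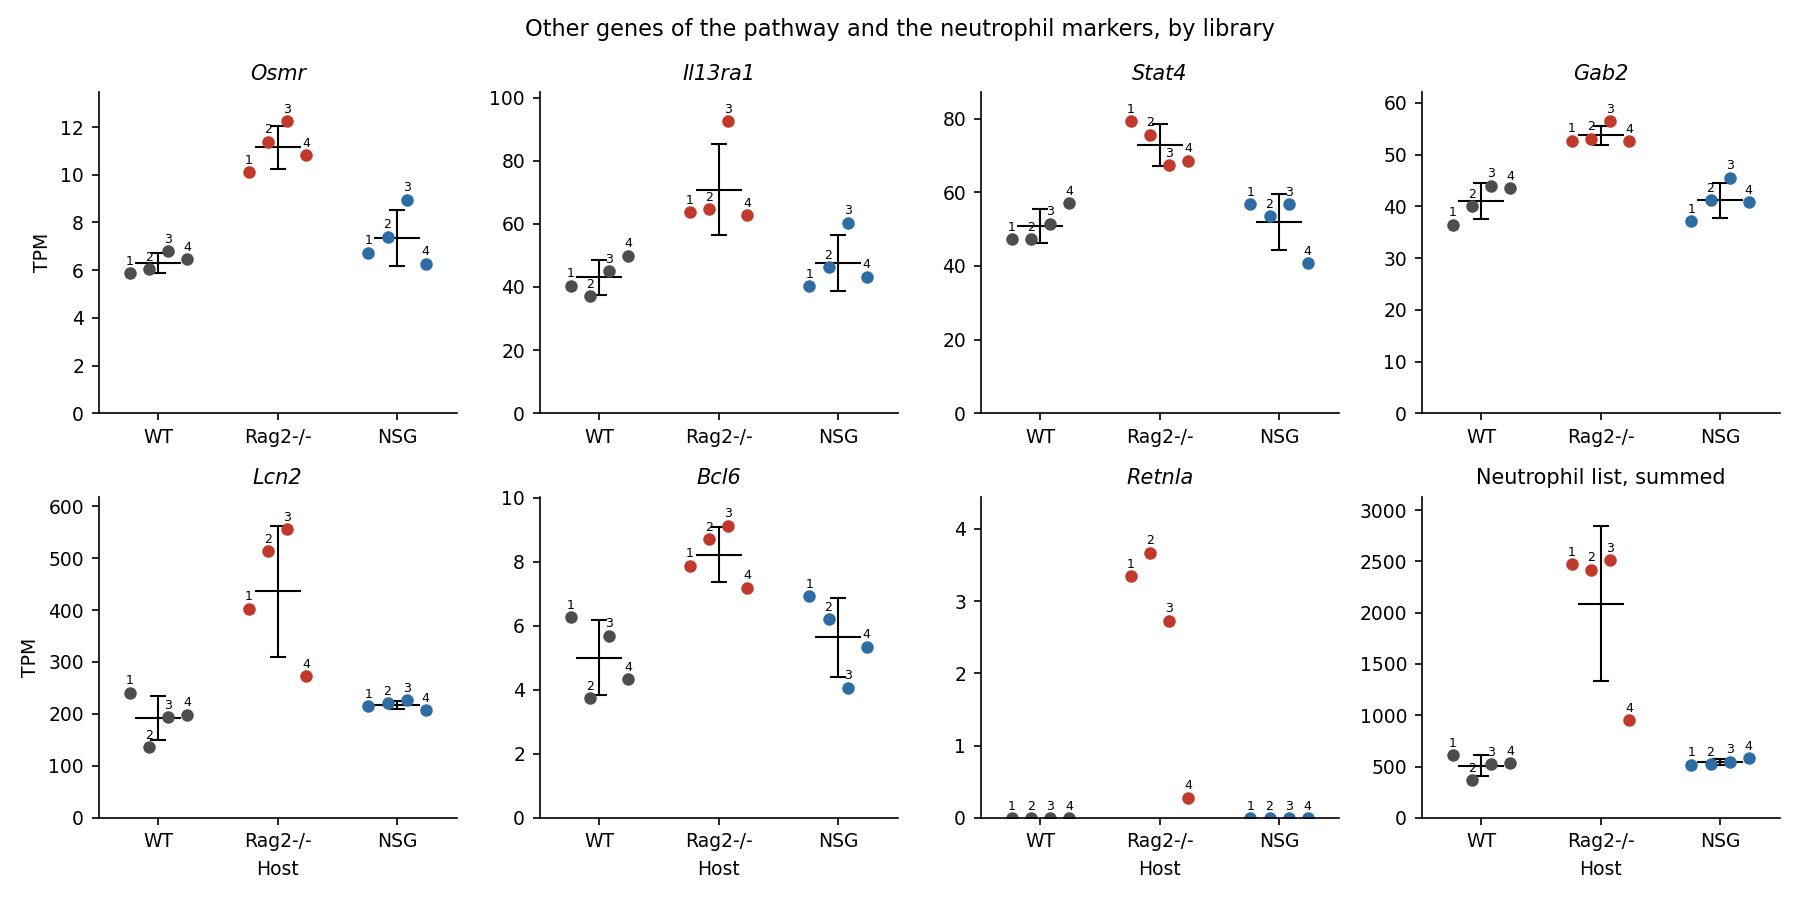
TPM (vertical axis, from 0) of 7 other pathway genes and the summed TPM of the neutrophil list in the 4 libraries of each host, numbered by replicate, with the mean and SD in black where drawn. All 4 Rag2-/- libraries lie above the 8 others for Osmr, Il13ra1, Stat4, Gab2, Lcn2 and Bcl6, and replicate 4 is the lowest Rag2-/- library for Il13ra1, Gab2, Lcn2, Bcl6, Retnla and the neutrophil sum.

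The genes whose levels followed those of the core most closely over the 12 libraries are given as a description. For Stat3 the highest Pearson r of log2(TPM + 1) were those of Lrrc25 (0.916), Aph1b (0.907) and Capn2 (0.906). For Socs3 they were Dusp3 (0.960), Itpr3 (0.944) and Syngr4 (0.933), and for Il4ra Fam110c (0.971), Pirb (0.970) and Cd38 (0.964). The libraries of a host share their host in these correlations, so part of each is the difference between hosts. Cd38, for example, was at 51.8 to 63.3 TPM in WT, 103 to 203 in Rag2-/- and 46.3 to 119 in NSG libraries.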

How the data were processed

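The data were RNA-seq libraries of sorted GFP+ leukemia cells, 4 from each of the WT, Rag2-/- and NSG hosts. According to the methods, HISAT2 on Galaxy placed the read pairs on mm10, and raw counts per gene were turned into TPM. The deposited TPM values, as the authors made them, have 1 column per library and sum to 1000000. The annotation and the counting tool are not given in the sources used here. Symbols and exon lengths came from GENCODE M21 for 55141 of 55401 genes.

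From the deposited TPM, log2(TPM + 1) was fitted for all 12 libraries together with limma 3.58.1 in R 4.3.3 (eBayes with a trend, no covariate). The 15026 genes that averaged 1 TPM or more entered the fit, and p-values were adjusted by the Benjamini-Hochberg method within a comparison. Intervals are 95% intervals of that fit. Tables and figures used Python 3.11.15, numpy 2.4.6, pandas 2.3.3 and matplotlib 3.10.9. Fold changes on this scale understate those of low genes.

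TPM times exon length came in whole multiples of what 1 read is worth, within 0.05 of a read, for 98.8% to 99.1% of genes up to 20 reads. This gave estimates of 16.0 to 42.7 (in units of 1000000 reads) a library, with no interval, and even numbers were commoner than odd. At this depth 3 reads on 1 kb equal 0.250 to 0.646 TPM.

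The members and lists were chosen with earlier results of these data known. Genes named were the 10 members, pathway genes called in any comparison, up to 4 of the most abundant per role, and the 3 most alike to Stat3, Socs3 and Il4ra. Others named, such as Gab2, Fas, Bcl6, the other targets with the motif, Igkc, Socs1, Il2rg, Fos, Lifr and Retnla, were chosen after their values were seen. The fit was tested on simulated data. Alternatives are in the closing section, and voom was added after seeing the data.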

Additional observations from a re-analysis of the deposited data

Results flagged for a closer look

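Of 85 groups of 4 libraries examined over 29 genes, 5 held a library set apart by a gap that took most of the group's range, where chance alone gives about 1 in 20, or 4.25. In Rag2-/- the lowest Stat3 value, that of replicate 1 (132 TPM, the others 146 to 149), left a gap of 0.84 of the range. In Rag2-/- replicate 3 was highest for Il13ra1 (92.5 TPM, the others 62.7 to 64.6, a gap of 0.936 of the range) and for Gab2 (56.5 TPM, the others 52.6 to 53.1, 0.889). Replicate 3 was also lowest for Mrc1, at 1.67 TPM where the other Rag2-/- libraries had 3.06 to 3.09 (0.974). In NSG, replicate 1 was lowest for Jak3, at 127 TPM with the others at 150.1 to 154 (0.86).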

How the results depend on the processing

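No core gene was called under any alternative with all 12 libraries or with the 8 of a comparison alone. Under these alternatives the limma adjusted p against WT fell as low as 0.0390 for Il4ra and 0.0492 for Jak1. Neither gene reached the fold limit there. Over all alternatives, 223 of 230 values of a core gene in Rag2-/- against WT kept their direction and stayed uncalled. The same held for 227 of 230 in Rag2-/- against NSG and 217 of 230 in NSG against WT. Only 2 gained a call, both against NSG and both with 1 library left out: Socs3 without NSG replicate 3 and Bcl3 without Rag2-/- replicate 4. With each library left out, 0 to 0, 0 to 1 and 0 to 0 core genes were called in the order above.

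Il6st in Rag2-/- against WT turned to -0.035 with quantile normalization, -0.024 with median-ratio scaling and -0.045 with voom, and ran from -0.048 to 0.055 with a library left out. Against NSG, Tyk2 ran from -0.064 to 0.0092. In NSG against WT, values near 0 changed sign with a library left out, namely Il6ra (-0.083 to 0.0013), Il4ra (-0.049 to 0.041), Jak1 (-0.075 to 0.020), Jak2 (-0.040 to 0.048), Tyk2 (-0.032 to 0.042), Stat4 (-0.022 to 0.13) and Gab2 (-0.049 to 0.052). Gab2 was also at -0.0026 with median-ratio scaling and Il4ra at 0.0073 with voom.

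The counts over all genes were less stable. In Rag2-/- against WT the 221 calls became 114 without a filter, 355 with the 8 libraries alone, 420 without a fold limit and 47 to 326 with a library left out, the lowest without WT replicate 2. In Rag2-/- against NSG the 32 became 14 with a pseudocount of 0.1, 7 without a filter, 19 with quantile normalization, 11 with median-ratio scaling, 18 without a trend, 6 with the 8 libraries alone, 60 with voom and 4 to 90 with a library left out, the highest without Rag2-/- replicate 4. In NSG against WT the 0 became 2 without a filter, 1 with voom and 0 to 2 with a library left out. Pathway calls were 4 against WT, 2 without a filter and 1 to 6 with a library left out. Against NSG they were 0, 2 with voom and 0 to 2 with a library left out, where Osmr and Il13ra1 were called without NSG replicate 3 and Lcn2 without Rag2-/- replicate 4. In NSG against WT they were 0 to 0. The causes were not tested.

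Replicate numbers did not pair the libraries, since the deviations of same-numbered libraries correlated at -0.091 to 0.032 and no library correlated best with its own number. With the number as a replicate block, 165 genes were called in Rag2-/- against WT and 5 against NSG.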
